A study of Homo sapiens with 32 samples.

Results

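The genes described here encode CTCF and the subunits and regulators of cohesin, and the measurement is where the transcription factors ZNF143, SP1, NRF1 and YY1 had ChIP-seq peak summits near their starts. The members were chosen by name and role, with earlier results of these data known, and the rule itself uses no measured value: CTCF, the core cohesin subunits SMC1A, SMC3, RAD21, STAG1 and STAG2, the loader NIPBL, and the regulators WAPL, PDS5A and PDS5B. They are 10 of 19970 protein-coding genes on chromosomes 1 to 22 and X. A summit belonged to a gene if it lay within 1000 bp of the gene's annotated 5′ end, upstream or downstream, in GENCODE release 44 on hg38.

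The cells were 1 clone, labelled HEK_CloneZD29, of HEK293T, a human embryonic kidney line, in which ZNF143 carries an inducible degron tag. In that system a small molecule, here dTAGV-1, brings the tagged protein to the cell's ubiquitin machinery for degradation. All 32 samples, controls included, carry this tag, and they fell into 10 groups: each precipitation was made from untreated cells and from cells given 50 nM dTAGV-1 for 30 minutes. There were 4 untreated and 4 treated samples each for the SP1, NRF1 and YY1 antibodies, and 2 and 2 each for ZNF143, taken by its HA tag, and for the mock precipitation. The deposited data used were 4 lists of summits, 1 per factor, which give no value per sample or per treatment. Treated and untreated cells were therefore not compared, no replicate error could be given, and counts of genes are set beside the same count over all protein-coding genes in place of a test.

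Cohesin is a ring of SMC1A, SMC3 and RAD21, joined by STAG1 or STAG2, that holds sister chromatids together and, along a chromatid, extrudes loops of DNA. NIPBL drives loading and extrusion, WAPL opens the ring and releases it, and PDS5A and PDS5B help WAPL and also hold cohesin in place at boundaries. CTCF is the zinc finger protein whose DNA sites stop the moving ring and so set the ends of many loops. ZNF143 is a zinc finger activator that binds near gene starts, SP1 binds GC boxes, NRF1 binds a GC-rich palindrome and YY1 binds a short word often placed just inside the start of transcription.

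The lists held 16165 ZNF143, 126181 SP1, 39180 NRF1 and 106578 YY1 summits on chromosomes 1 to 22 and X. The score of a summit is the value in column 5 of the deposited lists, on a −log10 scale of significance (whether of p or of q is not stated), with a lowest value of 2.00 in each list. Scores grow with read depth, which is unknown here, so they were compared only within a list, except for a description of their spread. Ranks are given as a percent of the list, where a low percent is a high score. Where a gene had several summits of a list, its highest-scoring one is described unless another is named. Offsets are in bp on the gene's own strand, negative upstream, with the annotated 5′ end as 0.

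SP1, NRF1 and YY1 each had a summit at 10 of the 10 genes, while ZNF143 had one at 4, namely CTCF, SMC3, SMC1A and WAPL. Over all protein-coding genes, SP1 marked 63.5%, NRF1 53.1%, YY1 62.3% and ZNF143 35.3%. SP1, NRF1 and YY1 together marked 10 of 10 members, beside 51.8% of all genes, and all 4 lists marked 4 of 10, beside 32.9%. Among the 10352 genes with SP1, NRF1 and YY1 summits, 63.6% also had a ZNF143 summit, beside 4 of the 10 members. The members' share with ZNF143 thus lay near the 35.3% of all genes, but below the 63.6% of genes with SP1, NRF1 and YY1 summits. With 10 members, neither difference was tested. The members with ZNF143 were the boundary factor, the release factor and 2 ring subunits, of which SMC3 had only a summit near the list's threshold. Those without were the ring subunit RAD21, the loader, the STAG subunits and the PDS5 proteins.

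**Figure D1:**
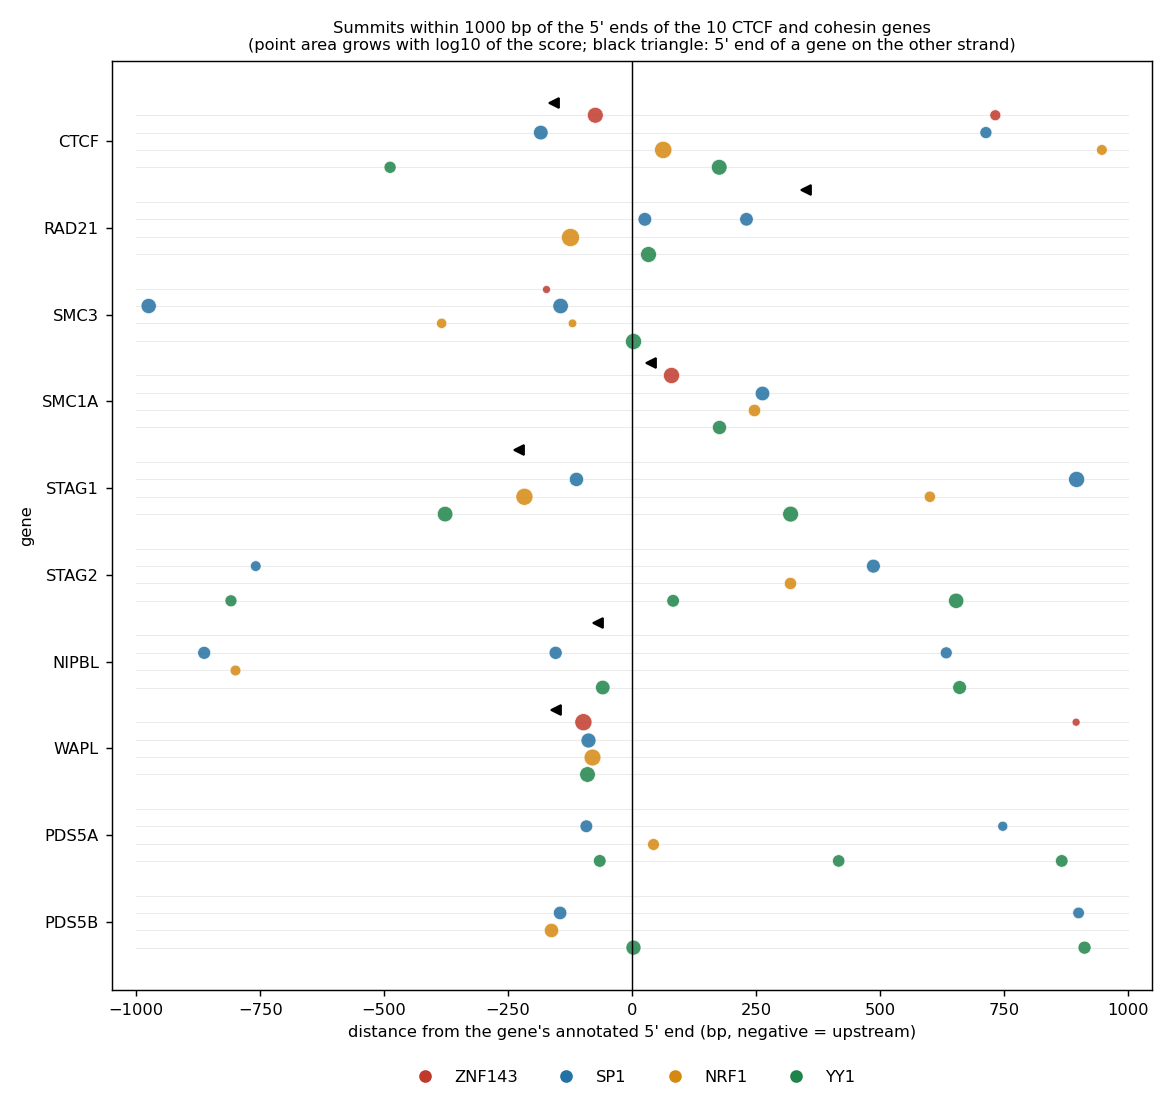
Summits within 1000 bp of the 5′ ends of the 10 genes. The x axis is the distance from the annotated 5′ end in bp (negative is upstream), each gene has 1 line per list in the order ZNF143, SP1, NRF1, YY1, point area grows with log10 of the score, and black triangles mark the 5′ end of a gene on the other strand. WAPL has its large points of all 4 lists within 18 bp, while those of STAG1 span 1114 bp, and 6 genes have no ZNF143 point.

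CTCF (ENSG00000102974.16, chr16:67562467-67639177, plus strand) had summits of all 4 lists. Its ZNF143 summit lay at −74 with a score of 1447, rank 10.6% of that list. The SP1 summit lay further upstream at −184, with a score of 433 and rank 5.46%. The 5′ untranslated region held the NRF1 summit at +63, with a score of 6933 and rank 2.23%, and the YY1 summit at +176, with a score of 1224 and rank 1.44%. CTCF thus stood highest in YY1 by rank in the list, but set against genes rather than summits it stood highest in NRF1: 8.11% of the genes with an NRF1 summit scored higher, against 12.2% for YY1, 21.2% for ZNF143 and 25.9% for SP1. The summits followed the order SP1, ZNF143, NRF1, YY1 along the gene, over 360 bp. Each list had 1 more, lower summit within the window, with scores from 18.2 for NRF1 at +948 to 47.5 for YY1 at −488.

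The sequence around these summits of CTCF is shown because neither the ZNF143 nor the NRF1 summit, both of high score, sat on an exact copy of its factor's consensus. Each line below reads 5′ to 3′ on the plus strand of hg38. The first covers −120 to −1 (chr16:67562347-67562466), with capitals on the nearest relative of the ZNF143 consensus within 50 bp of the summit. The second covers +50 to +79 (chr16:67562517-67562546), in the 5′ untranslated region, with capitals on the nearest relative of the NRF1 consensus. The third covers +75 to +104 (chr16:67562542-67562571), with capitals on an exact YY1 word, read on the minus strand.
CTCF upstream: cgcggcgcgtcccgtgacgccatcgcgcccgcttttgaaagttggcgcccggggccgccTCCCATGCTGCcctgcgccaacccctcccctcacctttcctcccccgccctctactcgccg
CTCF first exon: ggcagcgccgACGCAGGCGCactgcaccgc
CTCF YY1 word: accgcgccgcCGCCATTTTgtgtctgagcc
Counting from 1 at the 5′ end of the consensus, the ZNF143 relative differs by A8C and the NRF1 relative by G1A. The first starts at −61 and the second at +60, where it covers the NRF1 summit. The YY1 word spans +85 to +93 and its centre lies 87 bp from the YY1 summit, so it was not counted as lying at the summit.

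SMC3 (ENSG00000108055.11, chr10:110567684-110606048, plus strand) and SMC1A (ENSG00000072501.19, chrX:53374149-53422728, minus strand) encode the pair of long ATPases that form the ring, and their summits differed in every list. The ZNF143 summit of SMC3 lay at −173 with a score of 3.42, rank 89.8%, close to the lowest score in the list. That of SMC1A lay at +79 in the 5′ untranslated region with a score of 1932, rank 9.48%. SMC3 was therefore a member with ZNF143 only through a summit near the list's threshold, and 93.6% of genes with a ZNF143 summit scored higher, against 19.3% for SMC1A. For SP1, SMC3 had summits at −144 with a score of 987, rank 1.99%, and at −975 with 770.04, and SMC1A had 1 at +263 with 411, rank 5.81%. For YY1, SMC3 had its summit at +2 with a score of 1978, the highest YY1 score of the 10 genes, rank 0.869%, and SMC1A at +176 with 272, rank 5.40%. For NRF1, SMC3 had a score of 13.4 at −384, rank 30.7%, below the median of all genes with an NRF1 summit (51.1), and SMC1A had 61.9 at +247, rank 16.5%, slightly above it. SMC3 thus held the highest member score for YY1 and the lowest for NRF1 and for ZNF143. The ZNF143, YY1, NRF1 and SP1 summits of SMC1A lay, in that order, all downstream of its 5′ end.

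The SMC3 start and the SMC1A ZNF143 summit are shown because the YY1 summit of SMC3 sits on an exact YY1 word, while the ZNF143 summit of SMC1A has no copy of the ZNF143 consensus nearby, exact or with 1 mismatch. The SMC3 line covers −8 to +21 (chr10:110567676-110567705, plus strand), and capitals mark the YY1 word, read on the minus strand from +2 to +10. The SMC1A line covers +65 to +94 (chrX:53422634-53422663, minus strand) and has no capitals.
SMC3: ccacgagcgcCGCCATTTTgtttggctgag
SMC1A: ggctacctcagttctcgggcgtacggcgcg

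STAG1 (ENSG00000118007.13, chr3:136336236-136752403, minus strand) and STAG2 encode alternative subunits that join the ring. STAG1 had the highest SP1 score of the 10 genes, 1862 at +897 in an intron, rank 0.722%. A second SP1 summit lay at −112 with a score of 301, rank 7.92%. NRF1 had its summit upstream, at −217 with a score of 5212, rank 3.26%. YY1 had a pair of high summits, at +320 with 1398 and at −377 with 1031, ranks 1.27% and 1.69%. The 5′ end of STAG1 was thus flanked on both sides by summits of SP1 and YY1, and the NRF1 and highest SP1 summits lay 1114 bp apart. No ZNF143 summit lay in the window: the nearest was 64.6 kb away, with a score of 5.75.

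The STAG1 sequence is shown because its NRF1 summit lies between exact copies of the NRF1 consensus rather than on one. The first line covers −318 to −119 (chr3:136752522-136752721, minus strand) with capitals on both NRF1 copies, and the second covers −378 to −319 (chr3:136752722-136752781, minus strand) with capitals on the YY1 word.
STAG1 NRF1: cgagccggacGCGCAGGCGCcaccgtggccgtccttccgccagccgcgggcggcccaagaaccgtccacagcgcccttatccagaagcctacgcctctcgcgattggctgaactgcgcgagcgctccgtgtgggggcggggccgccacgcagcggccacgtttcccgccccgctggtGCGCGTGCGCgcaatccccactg
STAG1 YY1: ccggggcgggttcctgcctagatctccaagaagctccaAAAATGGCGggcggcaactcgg
The copies start at −308 and −141, and their centres lie 86.5 and 80.5 bp from the NRF1 summit on its 2 sides. A relative of the NRF1 consensus with 1 mismatch, A5G, starts at −204, within 50 bp of the summit, and is left in small letters. The YY1 word starts at −340, and its centre lies 41 bp from the upstream YY1 summit.

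STAG2 (ENSG00000101972.20, chrX:123960212-124422664, plus strand) had the most spread starts of the 10 genes: its 29 annotated transcripts have 19 different starts within 2000 bp of the 5′ end, and its canonical transcript begins at +1494. Within the window, its SP1 summit lay at +487 with a score of 214, rank 10.6%. The NRF1 summit lay at +318 with 57.4, rank 16.9%, and the YY1 summit at +654 with 831, rank 2.02%. Higher summits lay just beyond it: YY1 at +1190 with 2252, rank 0.722%, and SP1 at +1348 with 346, rank 6.94%. The only ZNF143 summit near STAG2 also lay there, at +1204 with a score of 8.11, rank 63.8%. The choice of start therefore decides the ZNF143 count: measured from canonical starts, or from any annotated transcript start, 5 members had a ZNF143 summit, beside 37.1% and 40.3% of all genes. From the canonical start STAG2 had no NRF1 summit, which left 9 members with one, beside 56.1% of all genes. The NRF1 and YY1 summits inside the window both carried their consensus: the first line below covers +311 to +340 (chrX:123960523-123960552) with capitals on the NRF1 copy, and the second covers +654 to +683 (chrX:123960866-123960895) with capitals on the YY1 word, both on the plus strand of hg38.
STAG2 NRF1: ccgacagatgGCGCCTGCGCgttccattcg
STAG2 YY1: ggtaagttatAAAATGGCGgaggcgaagct

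RAD21 (ENSG00000164754.16, minus strand), the kleisin that closes the ring, had the highest NRF1 score of the 10 genes. Its NRF1 summit at −125 had a score of 17268 and was number 65 in the list, rank 0.166%. Only 0.642% of genes with an NRF1 summit scored higher. Exact copies of the NRF1 consensus began at −275, −141 and −94, and the centres of the nearer pair lay 11.5 and 35.5 bp from the summit. The YY1 summit at +32 had a score of 1544, rank 1.16%. SP1 had summits at +26 and +231 with scores of 180 and 160, ranks 12.1% and 13.1%, so RAD21 was below the median of all genes for SP1 (204) while near the top for NRF1. The nearest ZNF143 summit lay 108 kb away.

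NIPBL (ENSG00000164190.19, chr5:36876769-37066413, plus strand), the loader, scored below the median of all genes for SP1 (204) and NRF1 (51.1). Its SP1 summit at −154 had a score of 110.2, rank 16.9%, with others at −863 and +634. Its only NRF1 summit within the window lay at −800, the farthest of any member, with 18.2, rank 26.7%. YY1 had the clearest summit of NIPBL, at −59 with a score of 399, rank 3.77%, and another at +661 with 201, rank 7.21%. PDS5A (ENSG00000121892.15, chr4:39822863-39977956, minus strand) scored below the median of all genes in all 3 lists that marked it, but close to it for NRF1. Its SP1 summit at −92 had 80.3, rank 20.4%, its NRF1 summit at +42 had 41.4, rank 19.1%, and its YY1 summit at −65 had 74.8, rank 17.3%. PDS5A was the member with the lowest SP1 and the lowest YY1 score, and the only member below the median of all genes for YY1 (145). The nearest ZNF143 summits lay 132 kb from the NIPBL start and 79.5 kb from the PDS5A start.

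WAPL (ENSG00000062650.20, chr10:86435256-86521792, minus strand), the release factor, had all 4 summits at nearly the same place. ZNF143 lay at −98 with a score of 5517, rank 4.96%, the highest ZNF143 score of the 10 genes. YY1 lay at −90 with 1129.6, rank 1.56%, SP1 at −89 with 580.4, rank 3.90%, and NRF1 at −80 with 4022, rank 4.09%. These summits spanned 18 bp, against 134 to 1114 bp in the other members over the lists that each had. WAPL was also the only member for which fewer than 20% of genes scored higher in every list: 10.8% in ZNF143, 18.3% in SP1, 14.6% in NRF1 and 13.1% in YY1. PDS5B (ENSG00000083642.19, chr13:32586452-32778019, plus strand), the paralogue of PDS5A, had SP1 at −145 with a score of 147, rank 13.9%, NRF1 at −163 with 340.2, rank 10.1%, and YY1 at +3 with 619, rank 2.59%. PDS5B was higher than PDS5A in each of these lists, by score and by rank. It had no ZNF143 summit in the window, but one of the highest in the list, with a score of 14936 and rank 1.23%, lay 47.6 kb upstream.

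The WAPL sequence is shown because 1 stretch carried the summits of all 4 factors, and the PDS5B start because its YY1 summit lies inside a YY1 word. The WAPL line covers −160 to −1 (chr10:86521793-86521952, minus strand). Its first capitals mark ACTACA, which begins at −144, and its second the NRF1 copy, which begins at −81 and whose centre lies 3.5 bp from the NRF1 summit. The PDS5B line covers −11 to +18 (chr13:32586441-32586470, plus strand) with the YY1 word, read on the minus strand from −1 to +7, in capitals.
WAPL: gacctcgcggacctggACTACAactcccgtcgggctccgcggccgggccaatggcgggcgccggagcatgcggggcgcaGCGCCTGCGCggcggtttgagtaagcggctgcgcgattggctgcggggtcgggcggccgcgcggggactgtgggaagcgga
PDS5B: gagcgcttggCGCCATTTTgaagcggagag
The word ACTACA, known from the longer form of the ZNF143 site, was looked for after this sequence was seen. It lay within 50 bp of the ZNF143 summit at WAPL alone of the 4 members with one, and at 12.0% of the 7044 genes with a ZNF143 summit. The YY1 words of SMC3 and PDS5B are the same 9 letters, placed from +2 and from −1. Those of CTCF, STAG1 and STAG2 have these letters too, on one strand or the other.

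The members were compared with all genes that had a summit of the same list. Their median rank in the YY1 list was 1.79%, against 9.78% for all genes with a YY1 summit, and 9 of 10 were above the median score of those genes. In the ZNF143 list the 4 members with a summit had a median rank of 10.0% against 37.7%, and 3 of 4 were above the median. For SP1 the median ranks were 8.19% and 11.0%, with 6 of 10 above the median, and for NRF1 13.3% and 17.6%, with 7 of 10 above. The scores of 7 members lay above the upper quartile of genes for YY1, and those of 4 did so for NRF1, of 3 for SP1 and of 3 for ZNF143. The members above it for NRF1 were RAD21, CTCF, STAG1 and WAPL, and those for SP1 were STAG1, SMC3 and WAPL.

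**Figure D2:**
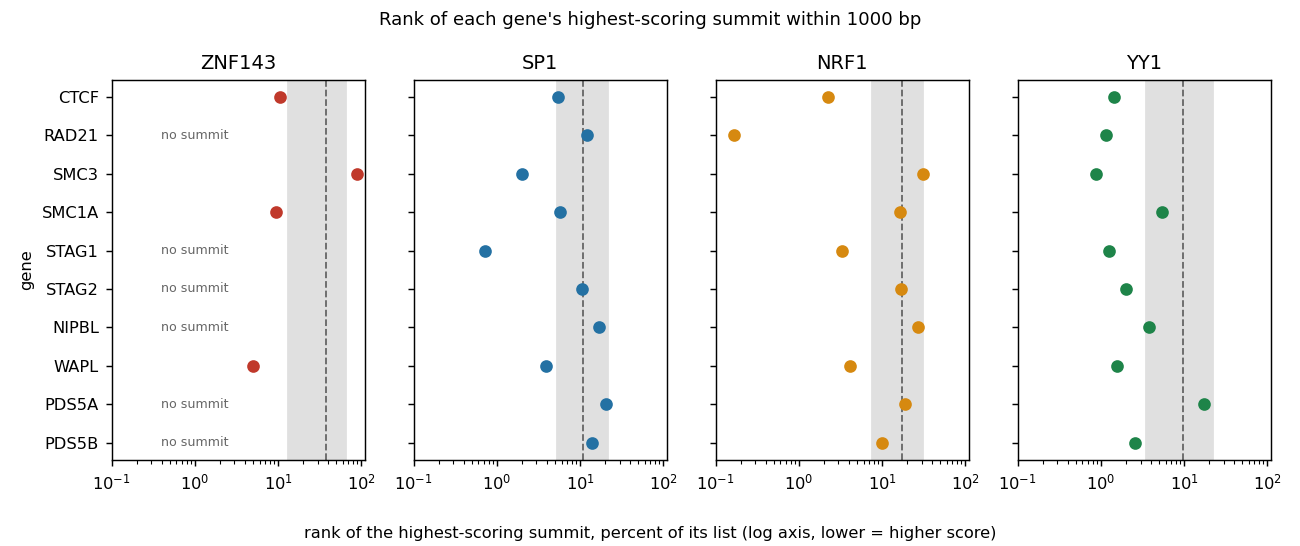
Rank of the highest-scoring summit of each gene within 1000 bp, as a percent of its list on a log axis, where further left is a higher score. Each panel is 1 list, dots are the 10 genes, the dashed line is the median and the grey band the interquartile range of all protein-coding genes with a summit of that list. For YY1 9 of 10 dots lie left of the median, and for ZNF143 the 6 genes without a summit are written as such.

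The scores of NRF1 and ZNF143 at gene starts spread over a wider range than those of SP1 and YY1, and the members took places at both ends. Read depth is unknown, so this difference in spread is described and not read as one between the factors. For NRF1, RAD21, CTCF, STAG1 and WAPL had scores between 4022 and 17268, PDS5B had 340.2, and the other 5 members had 13.4 to 61.9. No member lay between 340.2 and 4022. For ZNF143 the 3 members with high scores had 1447 to 5517 and SMC3 had 3.42. For SP1 the scores ran from 80.3 to 1862 and for YY1 from 74.8 to 1978, without such a gap.

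**Figure D3:**
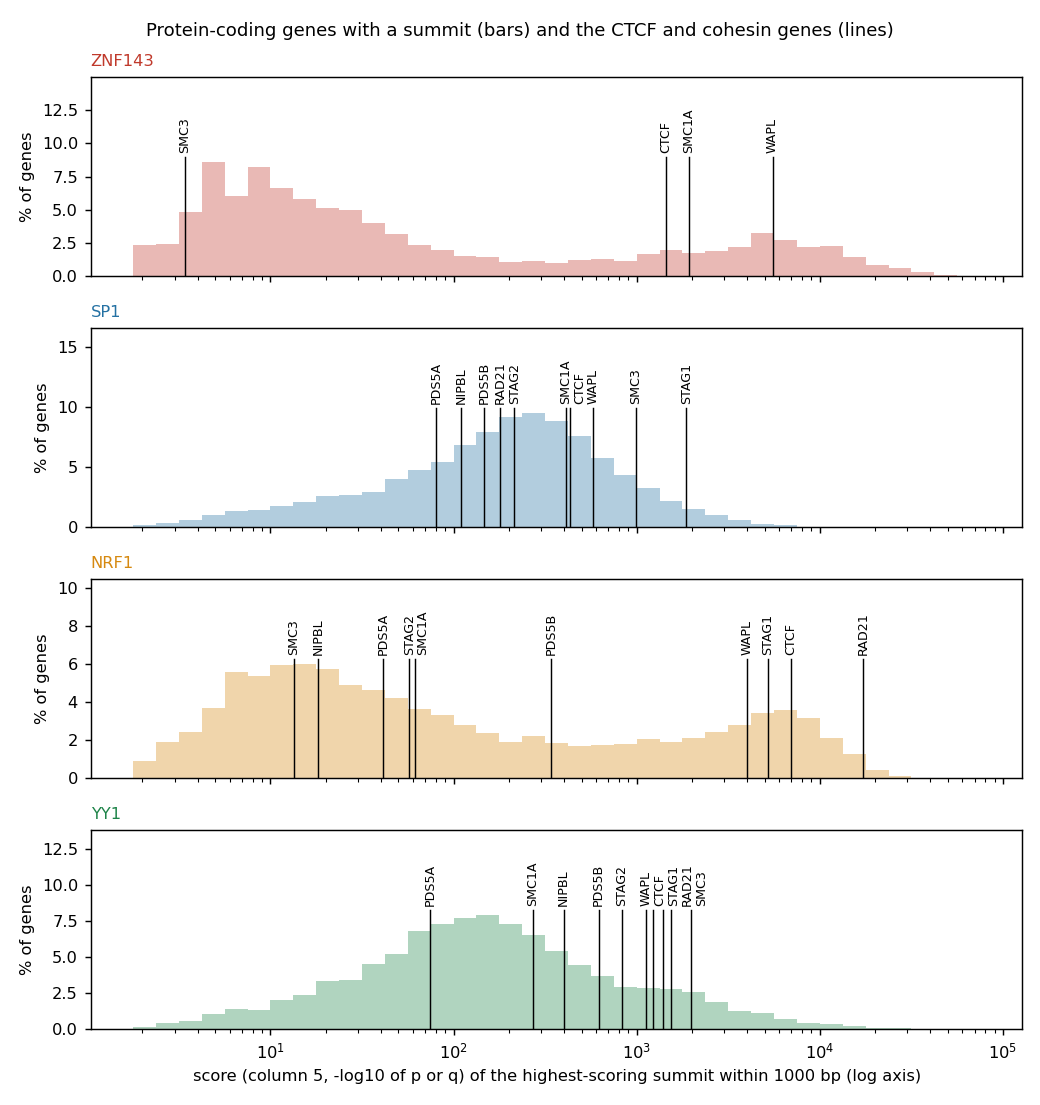
Scores of the highest-scoring summit within 1000 bp on a log axis, for all protein-coding genes with a summit of the list (bars, percent of those genes) and for the members (black lines with gene names, moved slightly apart where they are close). NRF1 and ZNF143 scores form a low and a high group, with RAD21, CTCF, STAG1 and WAPL in the upper NRF1 group and CTCF, SMC1A and WAPL in the upper ZNF143 group.

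The highest-scoring summits of the 4 lists had different places at the members. YY1 lay furthest downstream, with a median offset of +17.5 bp, against −90.5 for SP1, −102.5 for NRF1 and −86 for ZNF143. Over all genes YY1 was furthest downstream too, at +80, with SP1 at −29, NRF1 at −19 and ZNF143 at −11. The YY1 summit was the one furthest downstream in 6 members, CTCF, RAD21, SMC3, STAG2, NIPBL and PDS5B. The same count over all genes was not made. Within all genes that had both summits, YY1 lay a median of 34 bp downstream of SP1, 52 bp of NRF1 and 15 bp of ZNF143. Pairs of summits lay within 100 bp of each other in 5 of 10 members for SP1 and YY1, beside 47.7% of genes, in 3 for SP1 and NRF1, beside 45.5%, and in 2 for NRF1 and YY1, beside 30.9%. With ZNF143, the pairs within 100 bp were 2 of 4 for SP1 (62.1% of genes), 2 of 4 for YY1 (55.9%) and 1 of 4 for NRF1 (42.9%), and WAPL was in each of these counts. None of these counts exceeded the share of all genes by more than 1 member, and at WAPL every pair lay within 18 bp.

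Of the 34 highest-scoring summits of the members, 18 lay outside the gene, upstream of its 5′ end, 10 in untranslated regions, 4 in introns, 1 in a coding exon, which was the YY1 summit of SMC1A, and 1 in an exon annotated as neither coding nor untranslated, which was the YY1 summit of SMC3. These places were not counted over all genes, so no difference of the members from other genes is shown. Counting every summit within 1000 bp, there were 19 of SP1, 18 of YY1, 13 of NRF1 and 6 of ZNF143. Just inside the limit were the SP1 summit of SMC3 at −975 and the NRF1 summit of CTCF at +948. Just outside it were the YY1 summit of SMC3 at −1003, with a score of 122, and the NRF1 summit of NIPBL at −1036, with 10.1.

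Consensus words of the 4 factors and of CTCF, among them GGGCGG for SP1 and AANATGGCG for YY1, were searched on both strands, wholly within 50 bp of each gene's highest-scoring summit. The YY1 word lay at the YY1 summit of 3 of 10 members, SMC3, STAG2 and PDS5B, beside 7.00% of genes with a YY1 summit. The NRF1 word lay at the NRF1 summit of 3 of 10, RAD21, STAG2 and WAPL, beside 17.7%. The SP1 word lay at the SP1 summit of 2 of 10, CTCF and PDS5B, beside 43.6%, and no member had the ZNF143 word at its ZNF143 summit, 0 of 4 beside 5.55%. The SP1 count rested on the width of the search: 7 of 10 members had the word within 100 bp, beside 64.2% of genes with an SP1 summit. STAG2, with NRF1 and YY1, and PDS5B, with SP1 and YY1, had words of 2 factors at those factors' own summits.

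Over the whole window, to 1000 bp on both sides of the start, the YY1 word occurred in 5 members, CTCF, SMC3, STAG1, STAG2 and PDS5B, once in each, beside 11.2% of all genes. The NRF1 word occurred in 4, with 3 copies at RAD21, 2 at STAG1 and 1 each at STAG2 and WAPL, beside 11.6%. The SP1 word occurred in 10, with 101 copies, beside 79.1%, and the ZNF143 word in 0, beside 9.83%. The CTCF word, the site of one of the encoded proteins, occurred in 6 members with 10 copies, beside 41.6% of genes. CTCF itself had 2 of these copies, at −606 and +291. The CTCF word lay within 50 bp of the NRF1 summit of 1 member, STAG2, beside 4.98% of genes, and of the SP1 summit of 1, NIPBL, beside 6.10%. At the members' ZNF143 and YY1 summits it was found 0 times, beside 5.10% and 6.49% of genes. The words are matches of letters and no measure of binding. The members' windows were rich in G and C, with a median of 61.3% (51.6% at RAD21 to 70.2% at CTCF) against 55.0% for all genes, and a median ratio of observed to expected CpG of 0.873 against 0.614. The part of base composition in the counts of summits and words was not tested.

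Another gene began on the opposite strand within 1000 bp of 6 of the 10 members, beside 26.6% of all genes. In 4 it began upstream and pointed away: CTCF-DT at −158, STAG1-DT at −227, NIPBL-DT at −69 and WAPL-DT at −153, each a long noncoding RNA. RAD21-AS1 began inside RAD21, at +352, and the protein-coding gene RIBC1 began at +38 of SMC1A, so that their 5′ ends overlap. At WAPL, all 4 summits lay in the 153 bp between the 2 starts. At CTCF, the ZNF143 summit lay in the 158 bp between the starts, whereas the SP1 summit lay inside the transcribed part of CTCF-DT. The NRF1 summit of STAG1 at −217 and the YY1 summit of NIPBL at −59 also lay between the paired starts. The ZNF143 summit of SMC1A at +79 lay close to the RIBC1 start at +38. The NRF1 summit of RAD21 at −125 lay in an exon of RAD21-AS1. Its SP1 summit at +26 and YY1 summit at +32 lay in exons of RAD21-AS1 and of the microRNA gene MIR3610. The highest-scoring CTCF summits of each list also lay in an intron of another annotated gene, ENSG00000261386. A summit in such a stretch, beside such close starts or inside another gene cannot be assigned to one of the genes from the lists.

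Outside the windows, from 1000 bp downstream of the start to the gene's end, 2 of the 10 members held summits of ZNF143, 1 in CTCF and 2 in STAG2, beside 22.7% of the 14470 genes with at least 10000 bp there. RAD21 stood apart in density, with 12 SP1 and 9 YY1 summits in 27.8 kb, or 43.1 and 32.3 per 100 kb, against medians of 5.69 and 4.15 over the members and 3.33 and 2.75 over those genes. The highest of these RAD21 summits were near +8066 for SP1, with a score of 157, and +8082 for YY1, with 21.4. The highest summits in any member's body were those of STAG2, YY1 at +1190 and SP1 at +2924, with a score of 1262.

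The wider pathway showed ZNF143 at genes that work with the members. Of 15 other cohesin genes (meiotic subunits, the loader subunit MAU2, acetyltransferases, a deacetylase, sororin (CDCA5), shugoshins, separase, securin (PTTG1), the CTCF paralogue CTCFL and the helicase DDX11), 10 had a ZNF143 summit, 13 an SP1, 12 an NRF1 and 13 a YY1 summit. Of 15 genes of condensin and the SMC5/6 complex, the relatives of cohesin, 10 had a ZNF143 summit and 13 each an SP1, NRF1 and YY1 summit. The matching shares of all protein-coding genes were 35.3% (ZNF143), 63.5% (SP1), 53.1% (NRF1) and 62.3% (YY1), and no difference from them was tested. The 63.6% with ZNF143 among genes that had SP1, NRF1 and YY1 summits has a narrower base. It is not set beside these counts, because both gene lists include genes without any summit in the window, such as REC8 and SMC6. The median ZNF143 rank was 26.4% for the other cohesin genes with a summit, which ranged from 0.742% to 92.2%. It was 41.7% for the condensin and SMC5/6 genes, against 37.7% for all genes with a ZNF143 summit. The highest ZNF143 scores of the first list were at MAU2, the partner of NIPBL in the loader, with 18161 at −153, at HDAC8, the deacetylase of SMC3, with 17428 at +25, and at ESPL1, the separase that cuts RAD21, with 5728 at −75. All 3 were above WAPL, the highest of the members. Of the loader's 2 subunits, MAU2 was thus near the top of the ZNF143 list, rank 0.742%, while NIPBL had no ZNF143 summit within 132 kb. In the second list the highest were SMC4 with 2348 and NCAPD2 with 371, both condensin subunits, and NCAPD3 with 177. No summit of any list lay at REC8, the meiotic kleisin, CTCFL, SMC6 or EID3. For SMC6 the annotated 5′ end is that of a longer transcript, and at its canonical start, 46432 bp downstream, all 4 lists had a summit, whereas REC8, CTCFL and EID3 had none at their canonical starts either.

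**Figure D4:**
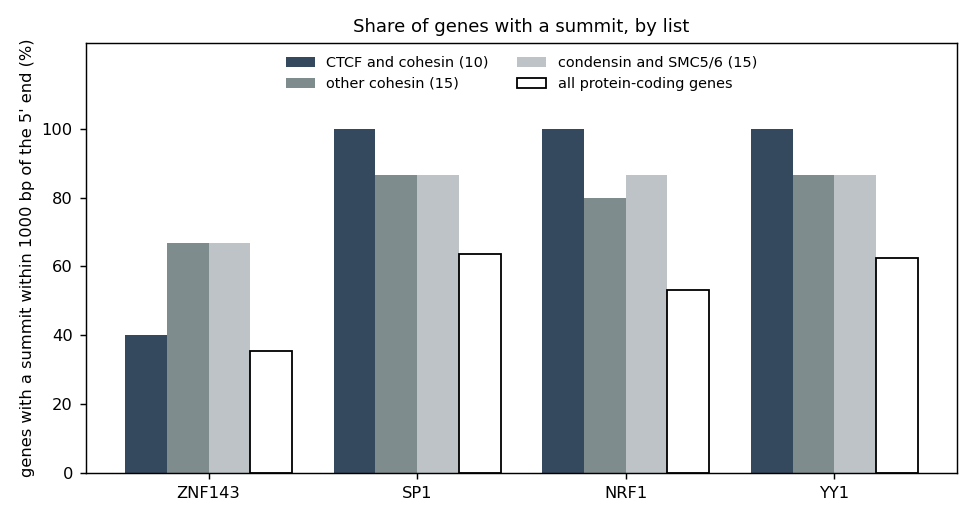
Percent of genes with a summit within 1000 bp of the 5′ end, by list, for the 10 CTCF and cohesin genes, 15 other cohesin genes, 15 condensin and SMC5/6 genes and all 19970 protein-coding genes. The members reach 100% for SP1, NRF1 and YY1, and for ZNF143 they are at 40%, near all genes at 35.3%, with 10 of 15 genes in each of the other lists.

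Likeness was measured over the 4 ranks in percent, with 100 where a list had no summit in the window, as the Euclidean distance between genes. The protein-coding genes closest to CTCF were CCNT2, the cyclin T2 gene, at 1.40, KLHL11 at 1.86 and RPL14, a ribosomal protein gene, at 2.31. CCNT2 ranked at 10.0% in the ZNF143 list, 6.67% in SP1, 1.83% in NRF1 and 1.49% in YY1. These values lie near those of CTCF because CCNT2 was chosen by them. Its summits lay elsewhere, between +396 and +728. The closest pair among the members was CTCF and WAPL, at 6.15, and after it STAG2 and PDS5B, at 7.60. CTCF and WAPL were the 2 members in the upper group of both ZNF143 and NRF1 scores, which restates the ranks behind their distance.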

How the data were processed

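The 4 deposited lists give 1-bp summits with a name and a score, which the values and layout show as the authors' −log10 of a p or q. Per the labels' descriptions, the SP1 and ZNF143 lists belong to untreated and treated samples alike. The NRF1 and YY1 lists were matched by the antibody in their names. The submitters' processing notes name cutadapt, Bowtie2, SAMtools 1.16.1, MACS3, bedtools and hg38, with no role or order. Read depth is unknown, and no interval from depth could be given. Signal tracks and a mock list were not analysed here.

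Coordinates were checked against hg38: 34961 of 34961 RefSeq promoter sequences were identical at their positions. Summits were joined to GENCODE 44 genes, and words searched in hg38, with Python 3.11.15, pandas 2.3.3, numpy 2.4.6 and pysam 0.24.0. The steps were tested on simulated data with planted summits and words. Summits that share a peak are not independent.

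The gene lists, like the members, were chosen with earlier results of these data known. Named genes were the members, genes starting on the other strand within 1000 bp, the 3 highest ZNF143 ranks and every gene without a summit in 2 related lists, and the 3 genes most like CTCF. Other genes and summits were singled out after their values were seen. Alternatives changed the distance, the start, the part of the list used, the ranking and the word search. RAD21 sequence is not shown.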

Additional observations from a re-analysis of the deposited data

How the results depend on the processing

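Of 73 alternative values over 19 results, 67 stayed within the limits set for the counts, ranks and offsets. The other 6 moved, all of them counts of consensus words at summits. The limits were wide, so the 67 values say little about stability. An SP1 count of 7 against 10 passed, as did any median rank or offset that moved by less than the members' standard deviation. With 1 mismatch allowed, members with the word at their own summit were 1 rather than 0 for ZNF143, 9 rather than 2 for SP1, 6 rather than 3 for NRF1 and 6 rather than 3 for YY1, beside 22.9%, 91.3%, 41.6% and 18.6% of genes with the summit under the same rule. The SP1 count was 7 within 100 bp (64.2% of genes) and 1 within 25 bp (25.8%). ZNF143 was at 5 members with 2000 bp (37.4%), any transcript start (40.3%) or canonical starts (37.1%), with STAG2 gained, and at 3 in the top 50% of the list (21.8%), with SMC3 lost. With all lists as short as the ZNF143 list, SP1 marked 7 members (35.6% of genes; PDS5A, PDS5B and NIPBL lost), YY1 9 (39.6%; PDS5A lost) and NRF1 10 (44.8%). NRF1 marked 9 members within 500 bp (48.3%; NIPBL lost), and the members' median NRF1 rank was 19.9% among peaks against 13.3% among summits. No paired analysis was possible because the lists give no value per sample. Unknown depth limits the absence of a ZNF143 summit to not detected at the lists' threshold. ZNF143 also had fewer samples, 2 untreated and 2 treated, against 4 and 4 for each other factor. Its list belongs to both, and the treated cells were given dTAGV-1, which is directed at ZNF143 itself. The part of either in these absences was not tested.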
